A study of Caenorhabditis elegans with 12 samples.

Results

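Whole worms that carried TDP-43 with an inactivated nuclear localization signal were set against wild-type worms, gene by gene and tissue by tissue. The comparison used 8 of the 12 libraries of the series, chosen by genotype: 4 of the TDP-43dNLS strain and 4 of the wild-type strain N2. TDP-43dNLS animals carried the disease protein TDP-43 with the substitutions K82A, R83A and K84A, expressed from the promoter of snb-1, and a red fluorescent marker, dsRED, expressed from the promoter of myo-3. snb-1 encodes synaptobrevin, and its promoter is active in neurons, while that of myo-3 is active in body wall muscle. The remaining 4 libraries came from a strain with TDP-43 of unaltered sequence under the snb-1 promoter and dsRED under the myo-2 promoter of pharyngeal muscle. They entered the fit too, where they helped to set both the estimate of the spread and that of the stage term, and they are quoted where a direct contrast between the strains bears on a result. All were labelled as larval stage 4 and raised at 20 °C from bleached eggs on 5XPEP plates. Wild type carried neither construct, so the altered protein, the muscle marker and the strain background cannot be told apart as sources of a difference. Whether replicates were grown separately is not in the labels, and p-values therefore measure only the spread between these libraries.

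TDP-43 binds RNA and acts in splicing, RNA stability and transcription. It is mostly nuclear in healthy cells, and in amyotrophic lateral sclerosis and frontotemporal dementia it is depleted from the nucleus of affected neurons and collects in their cytoplasm. Basic residues in its nuclear localization signal bind the import machinery, and their replacement leaves more of the protein in the cytoplasm. In the worm, body wall muscle is the large tissue that receives input from motor neurons and moves the animal. Its sarcomeres are built from myosin thick filaments and actin thin filaments, anchored at dense bodies and M-lines to the basement membrane.

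The 8 libraries held 20671982 to 26910097 counts each. They did not share a developmental state. Yolk protein gene vit-2 was at 3150, 2870 and 3650 CPM (counts scaled to library size) in wild-type replicates 1 to 3 and at 2910 and 2980 CPM in TDP-43dNLS replicates 1 and 2. It was at 6.82 CPM in wild-type replicate 4 and at 3.16 and 83.4 CPM in TDP-43dNLS replicates 3 and 4. A stage term with 2 levels therefore marked wild-type replicate 4 and TDP-43dNLS replicates 3 and 4 as yolk-poor and the other 5 as yolk-rich. In the strain with unaltered TDP-43, replicate 4 was marked yolk-poor as well, so these libraries also bear on the fold changes: the median of the body wall muscle genes described further on was -0.52 with all 12 libraries and -0.49 with the 8 compared. The term was defined from expression, and in edgeR's quasi-likelihood test with Benjamini-Hochberg adjustment it was past an adjusted p of 0.05 for 67.4% of genes. The yolk-poor side holds 1 wild-type library, which did not match both TDP-43dNLS libraries: col-19, an adult cuticle collagen, was at 34.9 CPM there and at 1.24 and 481 CPM in TDP-43dNLS replicates 3 and 4. Markers of neurons (rgef-1, unc-119), body wall muscle (unc-15), pharynx (myo-2), intestine (elt-2) and germ line (gld-1) were detected in all 8 libraries.

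With the stage term in the model, 9 of 16637 genes passed (0.0541%), 5 higher (0.0301%) and 4 lower (0.024%) in TDP-43dNLS. At an unadjusted p under 0.05 there were 865 genes (5.2%), of which 211 were higher (1.27%) and 654 lower (3.93%). The total is near the share that such a cut-off gives with no difference at all. A second, descriptive call asked whether every TDP-43dNLS library lay on the same side of every wild-type library within the yolk-rich libraries and again within the yolk-poor ones. By this call, 817 genes were lower without overlap (4.91%) and 403 were higher (2.42%). With 2 against 3 yolk-rich and 2 against 1 yolk-poor libraries, many genes separate in this way without any strain difference. These counts are therefore not numbers of changed genes, and they serve below as the background for the gene lists. The strain change itself was not shown to differ between the stage sides: in edgeR's test of the interaction 0 genes passed, with 201 at an unadjusted p under 0.05 (1.21%), and limma voom also gave 0. Without TDP-43dNLS replicate 3 that count was 25, and without TDP-43dNLS replicate 4 it was 196, each leaving 1 library of either strain on the yolk-poor side.

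Reads over the short non-coding gene T10H9.10 (chromosome V, 6659021 to 6659161, WBcel235), which lies beside snb-1, followed the genotype labels. Each wild-type library had 0 counts, and the TDP-43dNLS libraries had 28 to 177 counts, the 2 yolk-poor ones more than the 2 yolk-rich ones. Against a limit of 3 counts in each wild-type library, the lowest TDP-43dNLS library was at least 7.30-fold higher, and edgeR gave an adjusted p of 0.0149. Sequences of the constructs were not analysed here, so reads of the promoter fragment and of the gene itself cannot be told apart. The worm's own ortholog, tdp-1, averaged 89.3 ± 44.4 CPM in wild type and 90.7 ± 56.3 CPM in TDP-43dNLS (SD, n = 4), and the groups overlapped (log2 fold change 0.28 ± 0.20, SE).

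The other 4 higher genes lay on chromosome V, 3 of them in a single stretch of pseudogenes and small genes. Y102A5C.6 (16929167 to 16930063), an annotated pseudogene, was at 4.94, 10.9 and 13.6 CPM in yolk-rich wild type and at 97.3 and 118 CPM in yolk-rich TDP-43dNLS. On the yolk-poor side it was at 3.45 CPM in wild type and at 11.7 and 14 CPM in TDP-43dNLS. Both TDP-43dNLS libraries of each side were thus above all wild-type libraries of that side, with a log2 fold change of 2.91 ± 0.36 (SE) and an adjusted p of 0.0149 in edgeR. Its neighbour Y102A5C.5 (16928328 to 16928999), also a pseudogene, was at 1.71, 2.24, 3.24 and 0.79 CPM in wild type and at 22.3, 33, 2.88 and 4.67 CPM in TDP-43dNLS. Again the groups did not overlap within either side (3.12 ± 0.33, edgeR adjusted p 0.00886). Y102A5C.35 (16924985 to 16926125), the third pseudogene past the threshold, stood at 0.036 to 0.449 CPM in wild type and at 1.16 to 4.3 CPM in TDP-43dNLS (3.65 ± 0.51, edgeR adjusted p 0.0243). Y102A5C.4, Y102A5C.36, clec-237 and Y102A5C.43, further annotated genes of the same stretch (16922252 to 16934596), were at least 2-fold higher without overlap and did not pass. How reads that match more than 1 of these pseudogenes were counted is not known, so the values of each are uncertain. The same pseudogenes were high in the strain with unaltered TDP-43, where Y102A5C.6 was at 28.7 CPM in replicate 4 and at 93.4 CPM or more in the others. C38D9.2 (17567150 to 17571742), a protein-coding gene, was at 1.17, 0.936, 1.05 and 3.3 CPM in wild type and at 4.7, 5.56, 33.1 and 30.4 CPM in TDP-43dNLS (2.75 ± 0.35, edgeR adjusted p 0.0149).

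Among the 4 lower genes was pghm-1 (chromosome I, 1808092 to 1811835), which encodes the hydroxylating enzyme that amidates the ends of neuropeptides. Its CPM was 92, 95.8 and 105 in yolk-rich wild type, higher still in wild-type replicate 4, and 54.7, 41.5, 83.9 and 71.5 in TDP-43dNLS; the group means were 113 ± 30.9 and 62.9 ± 18.6 (SD, n = 4). Every TDP-43dNLS library was below every wild-type library, whatever the side, and the log2 fold change was -1.03 ± 0.15 (SE, edgeR adjusted p 0.0243). The remaining lower genes were again on chromosome V. exh-1 (3157086 to 3157871) was at 38.2, 41.2, 26.3 and 39 CPM in wild type and at 9.44, 8.51, 7.29 and 11.5 CPM in TDP-43dNLS (-2.12 ± 0.32, edgeR adjusted p 0.0385). C36C5.12 (3158404 to 3159352), next to it, was at 10.1, 11.3, 9.21 and 21.3 CPM in wild type and at 1.53, 3.48, 3.6 and 3.33 CPM in TDP-43dNLS (means 13 ± 5.59 and 2.98 ± 0.977, SD, n = 4; edgeR adjusted p 0.0229). Both sets of 4 were apart in each of these genes. C36C5.14 and C36C5.15 of the same stretch, which ends at 3168750, lay lower without overlap and did not pass. Their levels were low and spread, at 2.87 ± 2.75 against 0.972 ± 1.02 CPM and 1.26 ± 1.46 against 0.291 ± 0.457 CPM (SD, n = 4). In the unaltered TDP-43 strain their log2 fold changes against wild type were positive (1.16 and 1.27), whereas those of exh-1 and C36C5.12 were -0.29 and -0.08. Y19D10B.6 (2318490 to 2321101) was at 20, 21.7, 15.2 and 38.7 CPM in wild type and at 5.02, 6.3, 7.17 and 12.9 CPM in TDP-43dNLS (-1.84 ± 0.23, edgeR adjusted p 0.0149).

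Set directly against the strain with unaltered TDP-43, the lower genes gave a range of values. exh-1 was 1.83 ± 0.31 lower on the log2 scale in TDP-43dNLS than in that strain, C36C5.12 was lower by 2.23 ± 0.31 and Y19D10B.6 by 1.42 ± 0.23, with edgeR adjusted p values of 0.148, 0.0876 and 0.142. For pghm-1 the direct difference was -0.13 ± 0.14, and for the protein-coding gene and the 3 pseudogenes that were higher it ran from -0.56 ± 0.30 (Y102A5C.5) to 0.12 ± 0.33 (C38D9.2). None of these passed that direct test, in which 1 gene did (0.00601%), the protein-coding C30G12.1, lower in TDP-43dNLS by 3.09 on the log2 scale (edgeR adjusted p 0.0415). Against wild type, the number of calls depended on the libraries fitted. The count was 0 when only the 8 libraries were fitted, where the 9 genes had adjusted p between 0.147 and 0.173 and 640 genes (3.97%) had an unadjusted p under 0.05. Leaving out wild-type replicate 2 also gave 0, TDP-43dNLS replicate 1 gave 1, wild-type replicate 4 gave 2, wild-type replicate 3 and TDP-43 replicate 2 each gave 5, and TDP-43 replicate 4 gave 17.

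**Figure D1:**
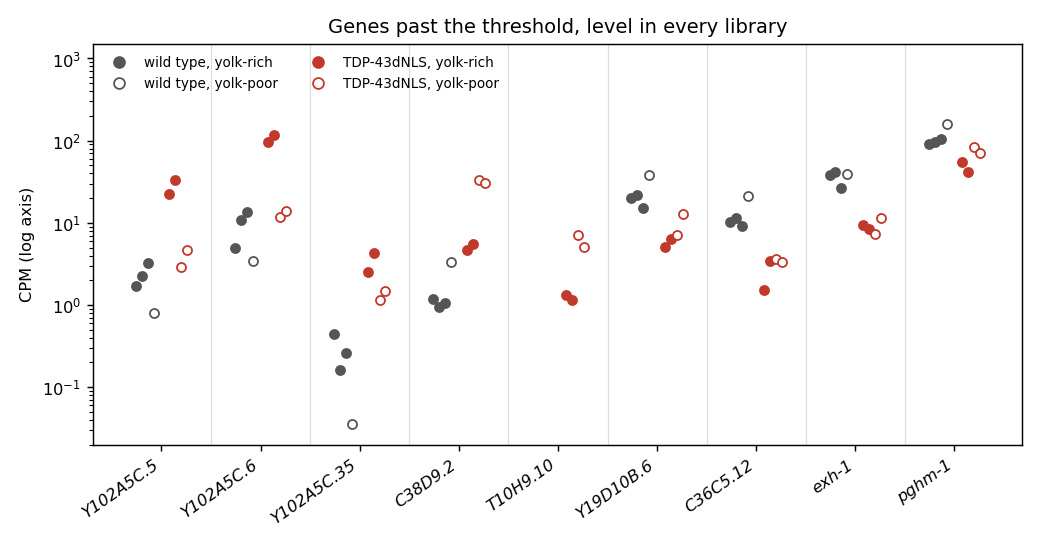
CPM on a log axis of the 9 genes past the threshold, 1 point per library, grey for wild type and red for TDP-43dNLS, filled for yolk-rich and open for yolk-poor libraries. Wild-type points of T10H9.10 are absent because all 4 libraries had 0 counts; in each of the other genes the red and grey points of the same fill do not overlap.

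Genes that did not overlap within either side, differed at least 2-fold and reached 5 CPM in 1 of the groups numbered 39 lower (0.234%) and 31 higher (0.186%). zig-2 on chromosome X, which encodes a secreted immunoglobulin-domain protein of neurons, was at 23.8, 24.5, 15.8 and 17.4 CPM in wild type and at 1.88, 3.44, 1.48 and 6.01 CPM in TDP-43dNLS. All 4 TDP-43dNLS libraries were far below all wild-type libraries, at -2.68 ± 0.43 with an edgeR adjusted p of 0.0694. In the strain with unaltered TDP-43 zig-2 was at 1.01 to 1.6 CPM. Compared directly with that strain, it was higher in TDP-43dNLS by 1.37 ± 0.43 on the log2 scale (edgeR adjusted p 0.78). ppt-1, a lysosomal palmitoyl-protein thioesterase whose human ortholog is mutated in a childhood neurodegenerative disease, was at 13.7, 11.9, 11.2 and 18.4 CPM against 1.45, 1.96, 4.72 and 10.1 CPM (-2.19 ± 0.40, edgeR adjusted p 0.145). Its model overlaps nhr-37 on the opposite strand, and the strand setting of the counting is not known. The serpin gene srp-3, the dihydropyrimidinase gene dhp-2, the cytochrome P450 gene cyp-35B1, the nuclear receptor gene nhr-43, and exc-13, srj-14 and lact-4 made up the rest of the named lower genes, at log2 fold changes from -1.16 (dhp-2) to -1.67 (cyp-35B1), with srp-3 lower still. Higher were the transthyretin-related ttr-42, the nuclear receptor gene nhr-3, the collagen gene col-96, the F-box gene fbxa-3, and tag-293, lido-11 and tcl-2, between 1.02 (tcl-2) and 1.73 (ttr-42). The SE was wide for ttr-42 (0.98) and col-96 (0.53). On the yolk-poor side ttr-42 had 1 count in wild type and 3 and 92 counts in TDP-43dNLS. nhr-3 was at 15.6, 12.3, 21.5 and 41 CPM in wild type and at 42.1, 26.4, 73.3 and 103 CPM in TDP-43dNLS. None of these higher genes passed, and exh-1 alone of the named lower genes did.

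Body wall muscle showed the most widespread difference of the gene lists examined. Of 80 tested genes of its sarcomere, attachment sites and excitation, 76 had negative log2 fold changes, and 45 lay lower without overlap within either side (56.25%, against 4.91% of all genes). The median was -0.52, where that of all genes was 0.013, with -0.54 on the yolk-rich and -0.39 on the yolk-poor side. Other lists had medians about as low with a smaller share lower without overlap. These included pharyngeal gland and cuticle genes (-0.65, 0 of 35), hedgehog-related genes (-0.48, 4 of 53), and molting and matrix genes (-0.47, 5 of 83). No muscle gene passed the edgeR threshold singly, and 51 were lower at an unadjusted p under 0.05, against 3.93% of all genes. Among genes averaging at least 50 CPM, 42 of 65 muscle genes lay lower without overlap, against 5.78% of all such genes. With the sides ignored, 14 of the 80 were lower in all 4 TDP-43dNLS libraries than in all 4 wild-type libraries, against 0.854% of all genes, and in the yolk-rich libraries alone 48 were, against 10.2% of all genes. In whole-animal RNA, fewer cells of a type and less RNA per cell cannot be told apart.

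Thick filament genes had the lowest median, -0.71, with 9 of 13 lower without overlap. The regulatory myosin light chain gene mlc-1 was at 1690, 1510, 1230 and 1650 CPM in wild type and at 777, 774, 1050 and 1080 CPM in TDP-43dNLS. Its companion mlc-2 was at 1830, 1880, 1720 and 1780 CPM against 1050, 1190, 1200 and 1220 CPM. In both, all 4 TDP-43dNLS libraries lay below all 4 wild-type libraries, with log2 fold changes of -0.89 ± 0.17 and -0.71 ± 0.16 and edgeR adjusted p values of 0.145 and 0.231. Each has a protein-coding neighbour on the opposite strand that overlaps its model. How reads that match both mlc-1 and mlc-2 were counted is not known, so their values may not be separate observations. unc-15, which encodes the thick filament core protein paramyosin, was at 2960, 2130, 1680 and 3280 CPM in wild type and at 1320, 1350, 2490 and 1950 CPM in TDP-43dNLS. It lay lower on each side but not across sides (-0.72 ± 0.18). The giant proteins of the sarcomere followed: twitchin (unc-22) at -0.98 ± 0.25, titin (ttn-1) at -0.93 ± 0.23 and obscurin (unc-89) at -0.89 ± 0.25, together with the M-line genes unc-98 (-0.90 ± 0.23) and unc-96 (-0.64 ± 0.19). The minor myosin heavy chain gene myo-3, whose promoter drives the marker, overlapped between the groups (-0.36 ± 0.21), as did the myosin chaperone gene unc-45 (-0.35 ± 0.15).

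Of 20 thin filament genes 19 were negative, with a median of -0.56, and 13 lay lower without overlap. Troponin T (tnt-2) was at 1460, 1290, 1220 and 1330 CPM in wild type and at 724, 905, 719 and 675 CPM in TDP-43dNLS (-0.84 ± 0.19). The actin gene act-4, the most abundant thin filament gene, was at 6110, 5490, 4640 and 5280 CPM against 3600, 3700, 3470 and 3510 CPM (-0.66 ± 0.19). Both genes separated the strains in all 8 libraries. Troponin C (pat-10, -0.83 ± 0.22), tropomyosin (lev-11, -0.62 ± 0.18) and the calponin-related unc-87 (-0.60 ± 0.17) and cpn-3 (-0.59 ± 0.17) lay lower as well. So did the cofilin gene unc-60 (-0.54 ± 0.13), whose transcript forms are not separated in counts per gene. The actin genes act-1, act-2, act-3 and act-4 are near-identical in their coding parts, so counts may have been shared among them. At the other end, act-2 overlapped (-0.24 ± 0.23), and clik-3 was slightly positive (0.07 ± 0.17).

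All 24 attachment genes were negative (median -0.48), and 15 lay lower without overlap. The dense body cross-linker alpha-actinin (atn-1) was at 514, 430, 316 and 549 CPM in wild type and at 204, 223, 347 and 346 CPM in TDP-43dNLS, apart on both sides (-0.92 ± 0.18, edgeR adjusted p 0.145). Basement membrane genes followed, with the type IV collagens emb-9 (-0.83 ± 0.18) and let-2 (-0.74 ± 0.21) and the laminin gene epi-1 (-0.76 ± 0.19). The integrin beta gene pat-3 was lower by a smaller amount (-0.25 ± 0.12), and the integrin alpha gene pat-2 (-0.43 ± 0.17) overlapped. Of 23 excitation, calcium and regulator genes, 21 were negative (median -0.46) and 8 lay lower without overlap. These included the ryanodine receptor gene unc-68 (-0.79 ± 0.23), the calcium pump gene sca-1 (-0.65 ± 0.17) and the calsequestrin gene csq-1 (-0.64 ± 0.15). The transcription factors that specify muscle overlapped between the groups, with hlh-1, the MyoD ortholog, at -0.37 ± 0.21 and unc-120 at -0.31 ± 0.20.

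**Figure D2:**
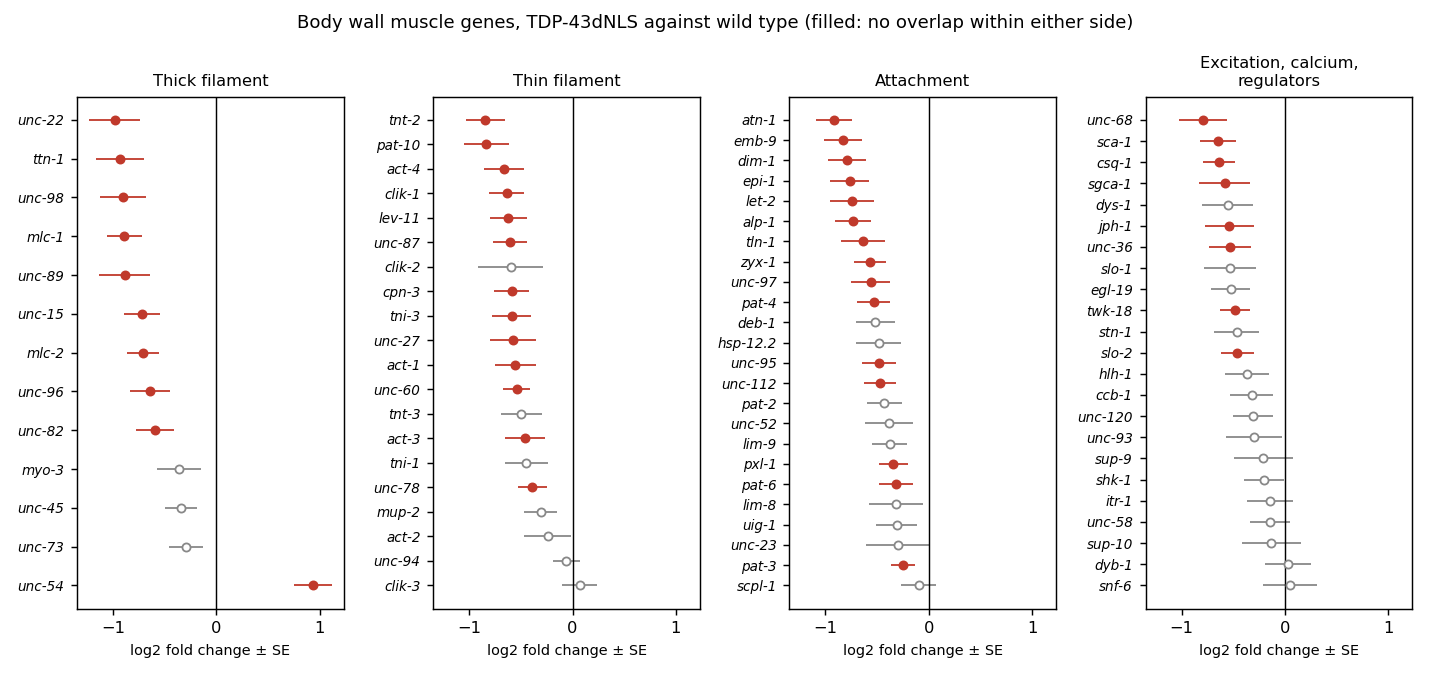
Log2 fold change (TDP-43dNLS against wild type, with the stage term) and its SE for the 80 body wall muscle genes, in 4 panels by role; red filled points do not overlap within either stage side. Of the 80 points 76 lie left of 0, and unc-54 alone is red and on the right.

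The exception was unc-54 (chromosome I, 14855901 to 14863482), the major myosin heavy chain of body wall muscle. Its CPM was 6280, 4400, 3210 and 6980 in wild type and 8340, 8830, 15400 and 14600 in TDP-43dNLS. All 4 TDP-43dNLS libraries were above all 4 wild-type libraries, at 0.93 ± 0.18 with an edgeR adjusted p of 0.149. Between the strains with altered and unaltered TDP-43 the difference was 0.91 ± 0.18 (edgeR adjusted p 0.347), and its CPM in the latter was 4020, 4510, 4430 and 9260.

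Ratios within a library need no scaling between libraries, and by them unc-54 left its partners in the sarcomere. Paramyosin and the myosin heavy chain assemble into the same filament, and per exonic base unc-54 had 1.05 to 1.17 counts for each count of unc-15 in wild type. The ratio was 1.18 to 1.33 in the strain with unaltered TDP-43 and 3.42 to 4.15 in TDP-43dNLS. To myo-3 it was 9.05 to 12.7 in wild type and 20.6 to 29.7 in TDP-43dNLS, and to mlc-1 it was at most 0.787 in wild type and at most 2.72 in TDP-43dNLS, with means of 0.627 ± 0.138 and 2.34 ± 0.334 (SD, n = 4). Of all counts in the muscle list, unc-54 took 10.3% ± 1.89 in wild type, 10.9% ± 0.616 in the unaltered TDP-43 strain and 26.7% ± 3.68 in TDP-43dNLS (SD, n = 4), where the lowest library was at 23.5%. These ratios held on both stage sides without overlap. The 3′ region of unc-54 is a common terminator of worm constructs, and the labels do not name the terminators used here. Reads of such a terminator and of unc-54 cannot be told apart in counts per gene.

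Without unc-54, the muscle genes summed to 48050, 42155, 36490 and 50438 CPM in wild type and to 27181, 28605, 36439 and 33926 CPM in TDP-43dNLS. The sums of TDP-43dNLS were all below the lowest wild-type sum, by a narrow margin for replicate 3. In the unaltered TDP-43 strain they were 35158, 36036, 37066 and 69854 CPM. Germ line content varied beside them: oma-1, an oocyte gene, was at 179, 295 and 397 CPM in wild-type replicates 1 to 3, whose muscle sums ran in the opposite order, and at 312 and 388 CPM in TDP-43dNLS replicates 1 and 2. Other germ line genes put TDP-43dNLS replicate 2 above the yolk-rich wild-type libraries, with gld-1 at 1000 CPM against at most 923 CPM and pgl-1 at 455 CPM against at most 414 CPM. On the yolk-poor side oma-1 was at 7.07 CPM in wild type and at 8.29 and 15.3 CPM in TDP-43dNLS. The part of stage in the muscle difference was not tested beyond the stage term, and without that term the median of the muscle genes was -0.21.

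**Figure D3:**
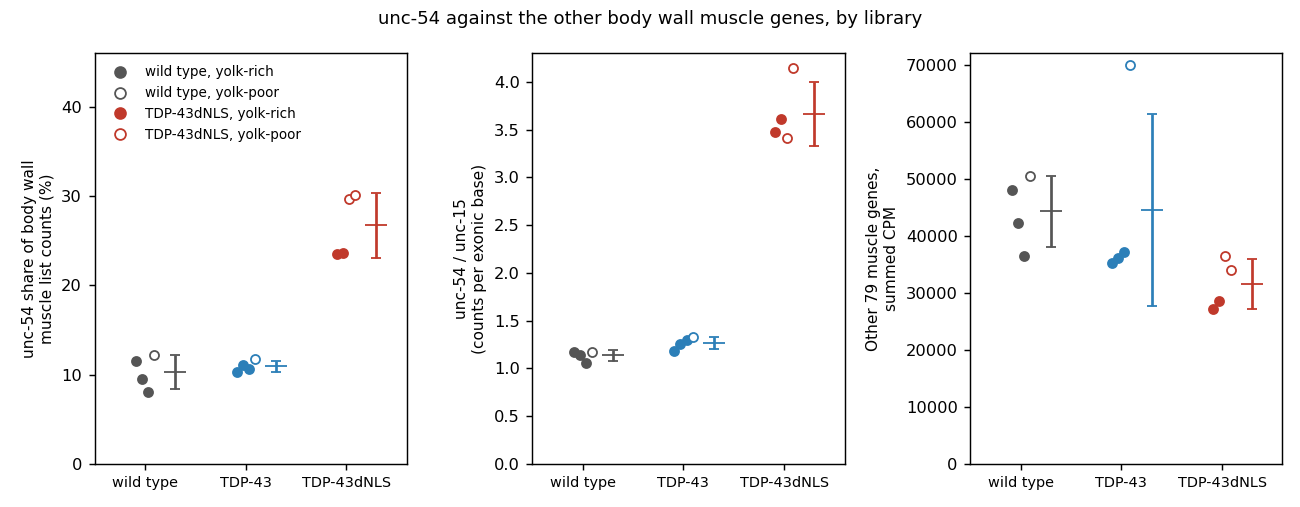
Share of the body wall muscle counts taken by unc-54 (left), its ratio to unc-15 in counts per exonic base (middle) and the summed CPM of the other muscle genes (right) in wild type (grey), TDP-43 (blue) and TDP-43dNLS (red), filled for yolk-rich and open for yolk-poor libraries, with mean ± SD of 4 libraries. The share averages 10.3% in wild type and 26.7% in TDP-43dNLS, and no TDP-43dNLS library is below 23.5%.

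Genes of other muscle overlapped more often; whether their change differed from that of body wall muscle was not tested. All 14 pharyngeal muscle genes were negative (median -0.50), yet only mlc-3 lay lower without overlap, and it encodes a light chain that body wall muscle also uses. Its CPM was 1820, 1680, 1460 and 2150 in wild type and 952, 1020, 1420 and 1430 in TDP-43dNLS (-0.74 ± 0.14, edgeR adjusted p 0.145). The pharyngeal myosin myo-2 was at 502, 330, 225 and 812 CPM against 337, 178, 574 and 344 CPM, and the groups overlapped. Against the unaltered TDP-43 strain the medians of the pharyngeal and the body wall muscle genes had opposite signs, 0.23 and -0.45. The filamin gene fln-1, which works in the contractile spermatheca and uterus, was at 728, 618, 521 and 606 CPM in wild type and at 485, 501, 387 and 400 CPM in TDP-43dNLS, without overlap (-0.45 ± 0.13, edgeR adjusted p 0.474).

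Neurons, the cells that express the transgene, showed a smaller and less uniform difference. Of 389 tested genes of neuronal function, which include genes that act in muscle such as ace-1 and unc-49, 296 were negative. Without overlap, 52 lay lower (13.4%, against 4.91% of all genes) and 7 higher (1.80%, against 2.42% of all genes). The median was -0.21, and it came from the yolk-rich side (-0.27) more than from the yolk-poor side (-0.05). Without the stage term it was 0.05, so the direction depends on that term. The share lower without overlap also moved, to 23.4% without wild-type replicate 3, to 26.2% without wild-type replicate 4 and to 26.5% without TDP-43dNLS replicate 1, where the shares of all genes were 10.7%, 10.2% and 10.1%. Genes expressed throughout the nervous system separated little: 1 of 28 was lower without overlap (the ankyrin gene unc-44, -0.49 ± 0.15) and 1 was higher. The latter was ric-19, at 7.42, 6.06, 6.7 and 11.7 CPM in wild type and at 8.23, 8.06, 18.7 and 20.1 CPM in TDP-43dNLS (0.49 ± 0.22). The general neuronal genes rgef-1 and unc-119 overlapped, at 13.2 to 25.2 and 17.8 to 27.6 CPM in wild type and at 10.8 to 29.1 and 19.8 to 25 CPM in TDP-43dNLS. For the 389 genes, the unaltered TDP-43 strain leaned lower too, with a median of -0.26 against wild type. In the direct contrast of TDP-43dNLS with that strain the median was 0.05, with 149 of the 389 negative.

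Neuropeptide genes, whose products pghm-1 helps to amidate, were the largest neuronal list. Of 105 precursor genes 84 were negative, and 19 lay lower and 5 higher without overlap, against 4.91% and 2.42% of all genes. flp-1, a peptide gene of few interneurons that modulates movement, was at 109, 92.7, 70.2 and 167 CPM in wild type and at 47.2, 45.6, 67.3 and 91.3 CPM in TDP-43dNLS (-1.09 ± 0.25, edgeR adjusted p 0.239). nlp-49 on chromosome X was at 125, 97.8, 73.9 and 187 CPM against 61.2, 47.5, 97.1 and 97.7 CPM (-0.94 ± 0.21, edgeR adjusted p 0.231). Within each side the strains were apart in both. flp-33 showed 25.5, 30.6, 28.9 and 26.4 CPM in wild type and 16.8, 12.5, 13.5 and 15.8 CPM in TDP-43dNLS, apart in all 8 libraries (-0.98 ± 0.25, edgeR adjusted p 0.320). flp-1 and flp-33 overlap genes on the opposite strand (daf-10 and ntr-1). Compared directly with the unaltered TDP-43 strain, flp-1 (0.80 ± 0.25) and nlp-49 (0.72 ± 0.21) were higher in TDP-43dNLS, with edgeR adjusted p values of 0.747 and 0.692. Over the 105 precursor genes, the median against wild type was -0.20 in TDP-43dNLS and -0.32 in the unaltered TDP-43 strain. The median of the direct contrast was 0.12.

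Transmitter genes leaned the same way. The share of all genes that lay lower without overlap, for the counts that follow, was 4.91%. Of 40 acetylcholine genes 35 were negative (median -0.35) and 8 lay lower without overlap, among them ace-1, an acetylcholinesterase of muscle, at -0.90 ± 0.27. GABA genes were negative in 12 of 15 (median -0.39), with 4 lower without overlap. They included unc-25, which makes GABA, at 70.2, 63.5, 72.7 and 128 CPM in wild type and 41, 37.9, 99.2 and 72.5 CPM in TDP-43dNLS (-0.71 ± 0.19, edgeR adjusted p 0.351). The GABA receptor unc-49, which sits on body wall muscle, was at -0.80 ± 0.25. In glutamate genes 27 of 29 were negative and 3 lay lower without overlap, and in synaptic release genes 33 of 39 and 3. Monoamine genes (18 of 28 negative), touch receptor genes (12 of 18) and sensory cilium genes (37 of 56) leaned less, with medians of -0.13, -0.11 and -0.13. Glial genes were negative in 14 of 14 (median -0.50), of which 1 lay lower without overlap. The unaltered TDP-43 strain also leaned lower than wild type, with medians of -0.31 (acetylcholine), -0.48 (GABA), -0.29 (glutamate) and -0.21 (synaptic release). In the direct contrast of TDP-43dNLS with that strain, the medians of these lists ran from -0.04 (glutamate) to 0.13 (GABA).

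**Figure D4:**
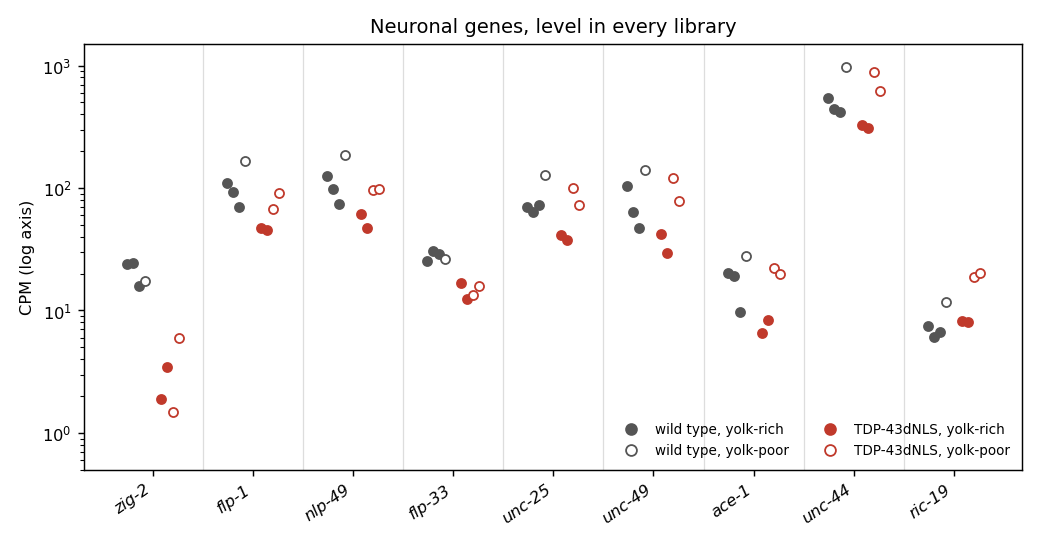
CPM on a log axis of 9 genes of neuronal function, among them ace-1 and unc-49, which act in muscle. Each library is 1 point, grey for wild type and red for TDP-43dNLS, filled for yolk-rich and open for yolk-poor libraries. In zig-2, flp-33 and, within each side, in the others the red points lie below the grey ones, except in ric-19, where they lie above.

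Among the lists outside muscle and neurons, transthyretin-related genes, which encode small secreted proteins, had 9 of 55 lower without overlap. The background share of all genes was 4.91%. ttr-16 was at 510, 600, 644 and 491 CPM in wild type and at 287, 389, 296 and 335 CPM in TDP-43dNLS, apart in all libraries (-0.80 ± 0.17, edgeR adjusted p 0.231), and ttr-5 (-0.77 ± 0.21) and ttr-41 (-0.47 ± 0.13) lay lower too. Nuclear-encoded respiratory chain genes were negative in 61 of 70 (median -0.11) and lower without overlap in 9. Their median was 0.01 on the yolk-rich side and -0.25 on the yolk-poor side, which has 1 wild-type library. The lowest p values among them belonged to ucr-2.2 (-0.42 ± 0.14), asb-2 (-0.39 ± 0.14) and sdha-1 (-0.44 ± 0.16), subunits of complex III, the ATP synthase and complex II, all on chromosome X. Cytochrome P450 and UDP-glucuronosyltransferase genes had 9 of 128 lower, which is near the background. Lysosome and autophagy genes had 4 of 70 lower, also near the background. Among them was the glucocerebrosidase gene gba-3, at 39.7, 39.8, 33.3 and 48.3 CPM in wild type and 14.3, 19.1, 35.6 and 38.6 CPM in TDP-43dNLS (-0.91 ± 0.20, edgeR adjusted p 0.231).

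Protein quality control and RNA processing genes stayed near 0. Heat shock genes had a median of -0.05 and 2 of 24 lower without overlap, against 4.91% of all genes. These were the small heat shock genes hsp-25 (-0.47 ± 0.12) and hsp-12.1 (-0.97 ± 0.37). The unfolded protein response lists of the endoplasmic reticulum (27 genes) and of mitochondria (19 genes) had medians of -0.08 and 0.06. Proteasome genes were positive in 35 of 36 (median 0.09) and ribosomal protein genes in 79 of 82 (0.16), with 0 members without overlap in either list. Of 62 splicing factor genes 61 were positive (0.17), also with 0 without overlap. Among 30 RNA-binding genes related to TDP-43, hrpl-1 was higher without overlap (0.34 ± 0.18), and sup-12 (-0.60 ± 0.19) and asd-2 (-0.53 ± 0.24) lower. Both of the latter regulate splicing in muscle. In glutathione and antioxidant genes 6 of 68 were higher without overlap, against 2.42% of all genes, including the thioredoxin reductase gene trxr-2 (0.71 ± 0.23) and gst-15 (0.94 ± 0.32). The list of genes linked to the intracellular pathogen response had 4 of 63 higher, among them pals-22 (0.53 ± 0.22) and pals-25 (0.46 ± 0.24). Whether the response itself was raised was not tested.

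Reproductive and cuticle genes seldom separated the strains within both sides, and several of their medians moved with the side or the stage term. Oocyte and eggshell genes were positive in 34 of 35 (median 0.39) and germ line genes in 48 of 49 (0.18), with 1 member in all without overlap; without the stage term the oocyte median was -0.26. Yolk genes had medians of -0.07 on the yolk-rich and 2.45 on the yolk-poor side, where wild type has 1 library. Cuticle collagens had a median of -0.65 on the yolk-rich and 0.11 on the yolk-poor side. Of 159, 6 were higher without overlap, against 2.42% of all genes. Among them col-142 was at 668, 621, 527 and 352 CPM in wild type and at 948, 872, 432 and 701 CPM in TDP-43dNLS (0.68 ± 0.21, edgeR adjusted p 0.537). Intestinal genes were negative in 36 of 50 (median -0.16) and lower without overlap in 3, against 4.91% of all genes. The abundant lipid-binding gene far-2 was 1 of these, at 5760, 6230, 7250 and 4050 CPM in wild type and 3760, 5140, 1250 and 2060 CPM in TDP-43dNLS (-0.87 ± 0.31).

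**Figure D5:**
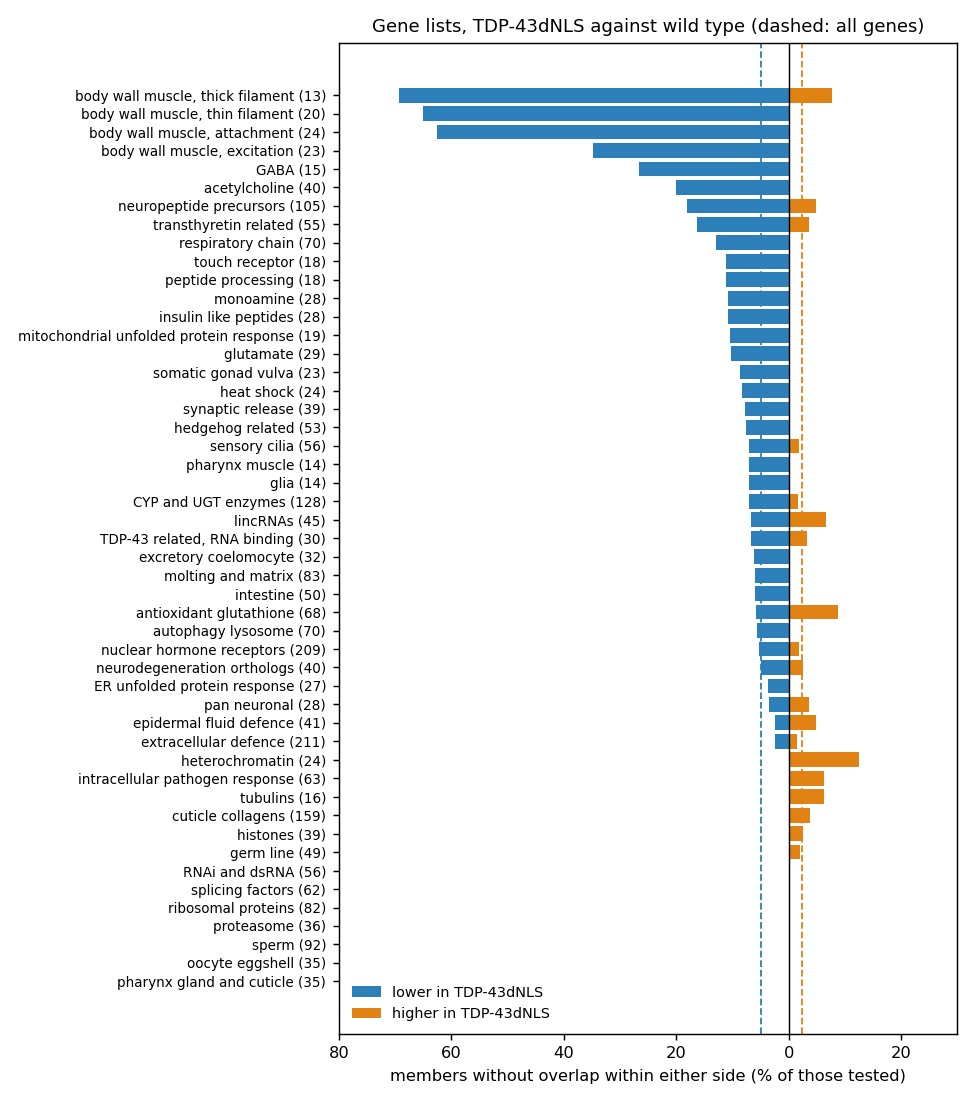
Share of the tested members of each gene list (number in brackets, lists of at least 10 genes) whose TDP-43dNLS libraries lay below (blue, left) or above (orange, right) all wild-type libraries within both stage sides, with dashed lines at the shares of all genes (4.91% and 2.42%). The 4 body wall muscle lists have the longest bars on the lower side.

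By chromosome, X stood lowest. Of 2405 tested X-linked genes, 1648 were negative (median -0.16) and 221 lay lower without overlap (9.19%), against 3.06% (chromosome I) to 5.33% (chromosome V) on the autosomes. The X median was -0.25 on the yolk-rich side and -0.01 on the yolk-poor side. In the worm germ line X-linked genes are mostly silent, and germ line genes leaned higher in the same fit, as given above; the part of either in the other was not tested. Muscle genes lay lower on X and elsewhere: 15 of 21 X-linked and 30 of 59 autosomal members were lower without overlap, with medians of -0.58 and -0.48.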

How the data were processed

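The authors deposited raw read counts per gene in 1 table of 46926 genes and 12 columns, matched to the samples by name. The build WBcel235 and the tools R 4.4.2, featureCounts 2.20.0 and STAR are listed, without roles, per the submitters' processing notes. The sources used here give no annotation release, strand setting or rule for multi-mapped reads. Symbols and coordinates came from Ensembl release 115 of that build, with RefSeq names for pseudogenes.

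In R 4.3.3, genes were filtered with filterByExpr (minimum count 10), leaving 16637. Libraries were scaled by TMM and fitted with edgeR 4.0.16 (robust quasi-likelihood, Benjamini-Hochberg, threshold 0.05) on group and stage term over all 12 libraries, leaving 8 residual degrees of freedom. CPM are TMM-scaled; SE is the log2 fold change over the square root of F. Named genes were those past the threshold, up to 10 gene-class names per direction by fold among genes of at least 5 CPM, 2-fold and without overlap, construct-linked genes, and up to 3 per list by p. Other muscle genes, markers and neighbours were named after their values were seen. The stage term, members, 50 lists and tests were chosen with earlier results of these data known. Alternatives used DESeq2 1.42.0 and limma 3.58.1. The fit was also run on counts simulated from its own model, and no result given here rests on that run. Depth was 20671982 to 26910097 counts per library. No sequences are printed.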

Additional observations from a re-analysis of the deposited data

Results flagged for a closer look

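In 14 genes, those past the threshold and those linked to the constructs, each group of 4 libraries was checked for a library far from the rest on the log2(CPM + 1) scale, using Dixon's ratio of the gap to the range with a critical value of 0.829. Of the 28 groups checked 3 were above it, and chance flags about 1 in 20 groups. For C38D9.2 the ratio was 0.858 in wild type, where replicate 4, the yolk-poor library, stood at 3.3 CPM against 0.936 to 1.17 CPM in the others. For C36C5.12 it was 0.897 in TDP-43dNLS, where replicate 1 stood at 1.53 CPM against 3.33 to 3.6 CPM. For exh-1 it was 0.832 in wild type, where replicate 3 stood at 26.3 CPM against 38.2 to 41.2 CPM. In each case the library that stood apart was still on its own group's side of every library of the other group on the same stage side.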

How the results depend on the processing

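The 9 calls became 18 with no filter on low counts, 69 in the Wald test of DESeq2 (27 higher, 42 lower, all 9 among them), 0 without the stage term, 0 with only the 8 libraries compared and 0 in the yolk-poor libraries alone, where the lone wild-type library is assumed to vary like the others and 1 residual degree of freedom is left. Leaving out each library gave 0 to 17. Other scalings, limma voom, a stricter filter, an oocyte covariate, averaged sides, the yolk-rich libraries alone and the germ line and epidermis lists left out gave 6 to 10; of the 6 in the yolk-rich libraries alone, 2 were among the 9. A replicate block with the stage term gave 6 genes, 5 of them among the 9, and a muscle median of -0.55. Same-numbered libraries did not deviate together once group and stage were removed (correlations 0.176, -0.102, -0.006 and -0.105). With group alone removed, the correlations were 0.299, 0.632, -0.594 and 0.685. Replicate 4 was yolk-poor in every strain, so number and stage are partly shared. Whether the numbers pair libraries is therefore not settled. The muscle median moved to -0.21 without the stage term and stayed between -0.59 and -0.39 in all other fits. Interaction calls ran from 0 to 196, and non-overlapping genes from 1444 to 3243, when 1 library was left out; fewer libraries make non-overlap easier. Among muscle genes, counted after seeing the data, 45 to 63 of 80 were then lower, against 5.68% to 10.7% of all genes. The cause of the other shifts was not tested. At these depths counting error is small for the genes named above 5 CPM, and the number of libraries sets the precision.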
